A study of Homo sapiens with 12 samples.

Results

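The 10 genes described here, PSMB8, PSMB9, PSMB10, PSME1, PSME2, TAP1, TAP2, TAPBP, ERAP1 and NLRC5, make, carry and load the peptides that MHC class I shows to T cells. They were taken by name from the 62696 genes in the count tables of SKBR3 and MDA-MB-453, 2 established HER2 breast cancer cell lines, and each name matched 1 gene. The study asked which genes respond to TWEAK, a ligand of the TNF family that binds the receptor Fn14. There were 3 biological replicates of each of 4 groups, untreated SKBR3, SKBR3 with TWEAK, untreated MDA-MB-453 and MDA-MB-453 with TWEAK. Treatment followed 8 h of starvation in Opti-MEM and lasted 48 h at 10 ng/ml recombinant human TWEAK, renewed after 24 h. Untreated cells have the same text in the labels, and how they were handled is not given. A difference between SKBR3 and MDA-MB-453 is one between these 2 lines only.

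Proteins in the cytosol are cut into peptides by the proteasome. Its catalytic subunits can be exchanged for inducible ones, PSMB8, PSMB9 and PSMB10, which together form the immunoproteasome, and PSME1 and PSME2 encode the 11S activator (PA28) that docks onto its ends. TAP1 and TAP2 form the transporter that moves peptides into the endoplasmic reticulum, tapasin (TAPBP) joins that transporter to empty class I molecules and edits their cargo, and the aminopeptidase ERAP1 trims peptides to length. NLRC5 is the transactivator of class I genes and of several genes of this pathway. Interferon gamma is the best known inducer of this set, and NF-kB, the pathway downstream of TNF family receptors, also acts on class I promoters.

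Library totals lay between 24773003 and 35208304 counts. Levels are given as CPM, counts scaled to library size with TMM factors over all 12 libraries. ERBB2 was at 7571 CPM in untreated SKBR3 and 889.7 CPM in untreated MDA-MB-453, and the epithelial markers EPCAM, KRT8, KRT18 and KRT19 were at 309.7 to 4943 CPM and 382.4 to 642.5 CPM. CDH1, another epithelial marker, had at most 7 counts in any SKBR3 library. Leukocyte markers summed to 1.09 to 1.60 CPM with TWEAK and 1.26 to 1.53 CPM without it in SKBR3, and to at most 0.52 CPM in MDA-MB-453. Stromal and endothelial markers summed to 23.7 to 25.7 CPM with TWEAK and 22.9 to 25.5 CPM without it in SKBR3, and to 106.5 to 113.1 CPM and 116.6 to 122.9 CPM in MDA-MB-453. Most of these sums was COL1A1, at 17.7 and 19.2 CPM in SKBR3 and 110.4 and 120.2 CPM in MDA-MB-453. No other marker of this list averaged above 4.20 CPM in a group of SKBR3 or 0.393 CPM in one of MDA-MB-453. Of these lists CDH5 (log2 fold change 1.26, edgeR adjusted p = 0.000855) and KRT19 (0.32, adjusted p = 0.0608) were called higher with TWEAK in SKBR3 and none in MDA-MB-453, and their part in the results was not tested. One library of each line was unlike its group. The counts of TWEAK replicate 2 differed from the other TWEAK replicates by a chi-square per degree of freedom of 18.7 and 21.1 in SKBR3, where other pairs of replicates gave 1.70 to 5.20, and of 9.19 and 4.85 in MDA-MB-453, where others gave 1.99 to 2.67. Without TWEAK replicate 2, 1 of 6 tested epithelial markers was called higher and 2 lower in SKBR3, and 2 of 7 higher in MDA-MB-453. Of the stromal and endothelial markers 1 was then called higher in SKBR3 and 1 lower in MDA-MB-453. The part of these markers in the results was not tested.

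All 10 genes had higher levels in each TWEAK library than in each untreated library of the same line, in both lines. Such a separation was seen in SKBR3 for 14.4% of all genes and in MDA-MB-453 for 8.2%. Genes were called DEGs at an adjusted p of at most 0.1 (edgeR quasi-likelihood test, p-values adjusted over all genes tested). By this rule 9 of the 10 were upregulated DEGs in SKBR3 (background 6.6% of genes) and 8 of the 10 in MDA-MB-453 (background 1.29%). As the 10 genes were chosen with earlier results of these data known, the contrast with the background is a description and no test of the set. None of the 10 was lower with TWEAK in either line, against a background of 3.82% for SKBR3 and 0.208% for MDA-MB-453. NLRC5 was the exception in SKBR3, and TAP2 and TAPBP were the exceptions in MDA-MB-453, so that 7 genes were DEGs in both lines. The 10 genes had a median log2 fold change of 1.04 in SKBR3, where the median over all genes tested was -0.0074, and of 0.55 in MDA-MB-453, where it was 0.0016. In bulk RNA, more cells with a transcript and more transcript per cell cannot be told apart.

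**Figure D1:**
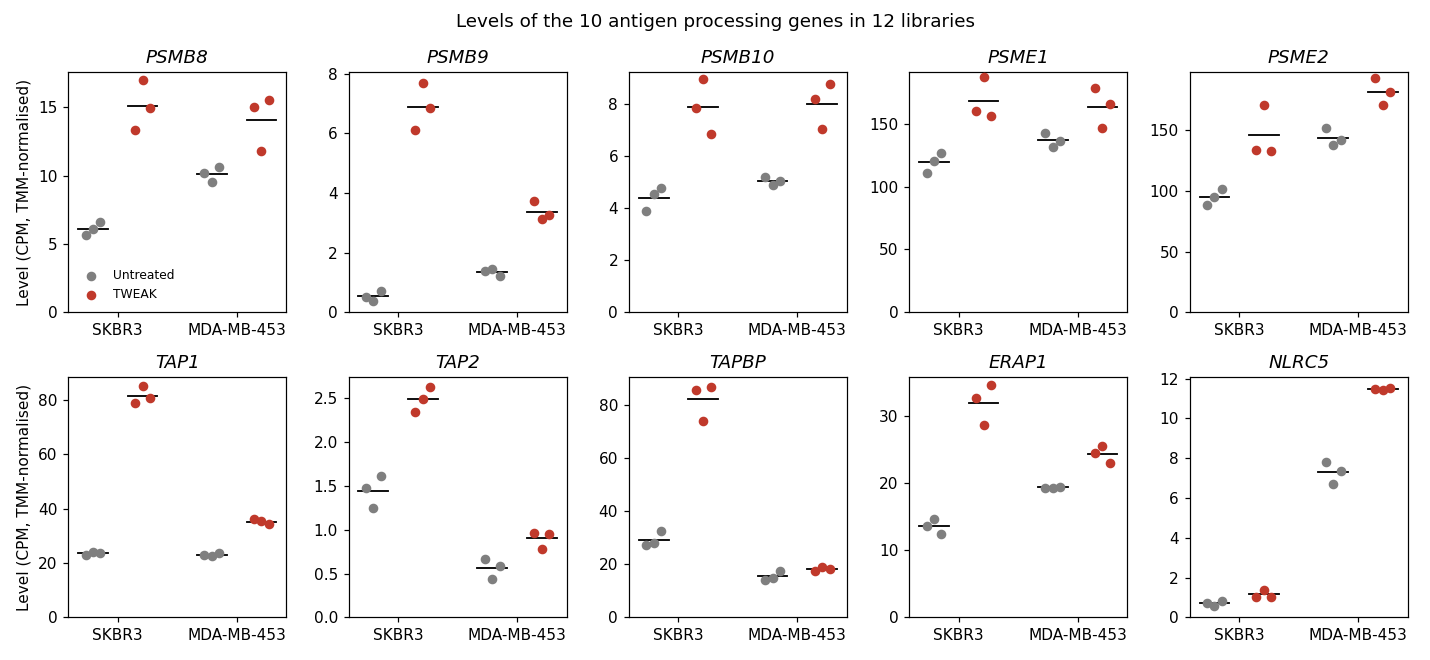
Level of each gene in CPM (y axis, linear from 0, scaled per gene) in each of the 12 libraries, untreated in grey and TWEAK in red, with the group mean as a bar. In every panel the red points lie above the grey points of the same line, and NLRC5 in SKBR3 stays near 1 CPM where MDA-MB-453 is above 6 CPM.

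The chromosome 6 genes, 5 in all, lie in the MHC region of chromosome 6. On hg38 with GENCODE 44 these are PSMB8 (chr6:32840717-32844679), PSMB9 (chr6:32844136-32859851), TAP1 (chr6:32845209-32853816) and TAP2 (chr6:32821833-32838739), packed into 38.0 kb of the class II region, and TAPBP (chr6:33299694-33314284). PSME1 (chr14:24136163-24138967) and PSME2 (chr14:24143362-24147570) are neighbours on chromosome 14, PSMB10 (chr16:67934506-67936864) and NLRC5 (chr16:56989485-57083531) lie on chromosome 16, and ERAP1 (chr5:96760810-96808100) lies on chromosome 5. PSMB9, PSME1 and NLRC5 are on the plus strand and the others on the minus strand. Some share exonic bases with other gene models. PSMB10 shares 39.4% of its exonic bases with ENSG00000261884 on the same strand, which had 8 to 46 counts per library, and the others share at most 21.0% with any single model. The processed pseudogenes PSME2P1 and PSME2P2 had 6 to 54 counts per library, against 2298 or more for PSME2. How reads that fit several genes were counted is not stated, so the counts of these genes are uncertain to that extent.

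RefSeq promoter windows (GRCh38.p14, 250 bases before to 50 bases after the start site) were taken for 9 of the 10 genes, all but NLRC5. The windows of the 4 genes with the largest log2 fold changes in SKBR3 are printed 5′ to 3′ on the gene's own strand, to show what stands before genes that moved together. Capitals mark matches, read on both strands, to the core of the interferon-stimulated response element (GAAANNGAA), a loose NF-kB site (GGNNNTTCC), the TGACG half-site of the X2 box and the CCAAT box.
PSMB9, chr6:32853942-32854241, plus strand: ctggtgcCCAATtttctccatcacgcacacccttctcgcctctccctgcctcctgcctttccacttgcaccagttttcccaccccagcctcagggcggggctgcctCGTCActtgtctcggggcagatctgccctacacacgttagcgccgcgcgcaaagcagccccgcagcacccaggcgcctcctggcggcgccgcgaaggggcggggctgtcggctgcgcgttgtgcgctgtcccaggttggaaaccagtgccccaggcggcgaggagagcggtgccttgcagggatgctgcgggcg
TAP1, chr6:32853655-32853954, minus strand: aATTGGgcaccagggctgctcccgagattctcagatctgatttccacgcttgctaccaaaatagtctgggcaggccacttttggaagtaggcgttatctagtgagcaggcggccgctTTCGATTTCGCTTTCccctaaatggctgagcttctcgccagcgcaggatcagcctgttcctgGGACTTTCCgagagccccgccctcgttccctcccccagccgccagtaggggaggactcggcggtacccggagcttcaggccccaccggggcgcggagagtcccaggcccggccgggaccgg
TAPBP, chr6:33314029-33314328, minus strand: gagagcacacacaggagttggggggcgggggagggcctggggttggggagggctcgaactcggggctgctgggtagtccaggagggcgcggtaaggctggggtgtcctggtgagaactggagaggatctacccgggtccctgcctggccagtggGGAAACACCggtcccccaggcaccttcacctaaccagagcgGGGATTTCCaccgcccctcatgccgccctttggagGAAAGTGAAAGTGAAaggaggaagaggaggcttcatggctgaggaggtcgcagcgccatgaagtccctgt
PSMB8, chr6:32844630-32844929, minus strand: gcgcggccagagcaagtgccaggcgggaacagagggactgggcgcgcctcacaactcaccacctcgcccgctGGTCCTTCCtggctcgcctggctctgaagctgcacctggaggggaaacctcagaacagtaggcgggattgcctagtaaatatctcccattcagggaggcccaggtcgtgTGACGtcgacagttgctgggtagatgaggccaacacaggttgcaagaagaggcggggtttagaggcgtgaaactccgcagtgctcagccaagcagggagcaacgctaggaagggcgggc

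The interferon-stimulated core was present in 7 of the 9 windows, compared with 8.1% of all 34943 promoter windows. TAP1 held 2 overlapping matches between bases -133 and -119 from its start site, and TAPBP held 2 overlapping matches between -20 and -6. PSMB10, PSME1, PSME2, TAP2 and ERAP1 held 1 each, whereas PSMB8 and PSMB9 held none in this window. TAP1 and PSMB9 are transcribed head to head from start sites 488 bases apart, and these TAP1 matches lie between those start sites, outside the PSMB9 window. The loose NF-kB site matched in 4 windows (PSMB8, TAP1, TAPBP and ERAP1) compared with 20% of all windows, with GGACTTTCC at -71 to -63 in TAP1 and GGGATTTCC at -55 to -47 in TAPBP. The TGACG half-site matched in 3 of 9 (24.5% of all windows) and CCAAT in 3 of 9 (34.6%), of which those of TAP1 and PSMB9 are the same bases, in the 13 that their windows share. Neither the gamma-activated site TTCNNNGAA (7.66%) nor the AP-1 site TGANTCA (7.72%) matched in any of the 9. A match describes letters in these windows and no binding was measured here.

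PSMB9, the inducible beta1i subunit, rose more than any of the other genes. It was at 0.503, 0.372 and 0.701 CPM in the untreated SKBR3 libraries, which is 14, 9 and 17 counts, and at 6.10, 7.69 and 6.84 CPM with TWEAK. This was a 13-fold rise (log2 fold change 3.70, SE 0.20, edgeR adjusted p = 8.66e-07) and ranked 29 among 15661 genes. In MDA-MB-453 PSMB9 went from 1.37, 1.46 and 1.21 CPM to 3.73, 3.13 and 3.24 CPM. The untreated level was thus higher and the level with TWEAK lower than in SKBR3, with a log2 fold change of 1.31 (SE 0.15, edgeR adjusted p = 0.000209) that ranked 30 among 14929.

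PSMB8, the beta5i subunit, was at 5.64, 6.12 and 6.59 CPM in untreated SKBR3 and at 13.4, 17.0 and 15 CPM with TWEAK. The groups did not come near each other, and the log2 fold change was 1.30 (SE 0.11, edgeR adjusted p = 3.24e-05). Untreated MDA-MB-453 began higher, at 10.2, 9.55 and 10.6 CPM, and reached 15, 11.8 and 15.5 CPM. There the rise was 1.40-fold (log2 fold change 0.49, SE 0.096, edgeR adjusted p = 0.0209), and the range with TWEAK overlapped that of SKBR3. Without untreated replicate 2 or without TWEAK replicate 3 of MDA-MB-453 this call was lost (adjusted p = 0.193 and 0.175).

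PSMB10, the beta2i subunit, rose less than PSMB8 and PSMB9 in SKBR3 and was called in both lines. SKBR3 went from 3.88, 4.55 and 4.78 CPM to 7.84, 8.97 and 6.84 CPM, a 1.79-fold rise (log2 fold change 0.84, SE 0.13, edgeR adjusted p = 0.00242). MDA-MB-453 went from 5.20, 4.88 and 5.03 CPM to 8.19, 7.05 and 8.78 CPM, a 1.60-fold rise (log2 fold change 0.68, SE 0.10, edgeR adjusted p = 0.00200).

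The constitutive subunits that these 3 replace did not pass the test in either line with all libraries in the fit. PSMB5, the counterpart of PSMB8, had log2 fold changes of 0.077 in SKBR3 and 0.035 in MDA-MB-453 (edgeR adjusted p = 0.584 and 0.801). PSMB6, the counterpart of PSMB9, had 0.13 and 0.11 (adjusted p = 0.529 and 0.577), and PSMB7, the counterpart of PSMB10, had 0.22 and 0.053 (adjusted p = 0.188 and 0.71). Without TWEAK replicate 2, PSMB6 was called higher in MDA-MB-453 (log2 fold change 0.17, adjusted p = 0.0213), as were 6.59% of all genes, and none of the 3 was called in SKBR3.

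Set against its counterpart within each library, per kb of exonic length, PSMB9 was 0.24% ± 0.061 (SD, 3 libraries) of PSMB6 in untreated SKBR3 and 2.91% ± 0.292 with TWEAK. In MDA-MB-453 the same ratio went from 0.943% ± 0.114 to 2.19% ± 0.121. PSMB8 went from 2.02% ± 0.142 to 4.70% ± 0.251 of PSMB5 in SKBR3 and from 3.15% ± 0.217 to 4.26% ± 0.438 in MDA-MB-453. Here again the groups did not overlap. PSMB10 went from 3.61% ± 0.245 to 5.56% ± 0.294 of PSMB7 in SKBR3 and from 4.41% ± 0.104 to 6.74% ± 0.497 in MDA-MB-453. The inducible transcripts were thus a small part of the catalytic subunit RNA in every library, at most 7.28% of the counterpart on this scale. The percentages depend on which length is used: with the length of the canonical transcript, PSMB9 with TWEAK in SKBR3 was 5.45% ± 0.546 of PSMB6 and PSMB8 was 9.81% ± 0.524 of PSMB5.

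The 2 subunits of the 11S activator were abundant before treatment and moved least in SKBR3. PSME1 went from 111, 120 and 126 CPM to 161, 188 and 156 CPM there, a 1.41-fold rise (log2 fold change 0.49, SE 0.082, edgeR adjusted p = 0.00335). PSME2 went from 88.3, 95.0 and 102 CPM to 134, 171 and 133 CPM, a 1.53-fold rise (log2 fold change 0.62, SE 0.10, edgeR adjusted p = 0.00272). Both were highest in TWEAK replicate 2 of SKBR3, but the other replicates also lay above all untreated libraries. In MDA-MB-453 PSME2 went from 152, 138 and 142 CPM to 193, 171 and 182 CPM (log2 fold change 0.33, SE 0.049, edgeR adjusted p = 0.00192). With all 12 libraries in 1 fit this call was lost (adjusted p = 0.103). PSME1 there went from 143, 132 and 136 CPM to 179, 146 and 166 CPM, so that the lowest TWEAK library lay just above the highest untreated one. Its call (log2 fold change 0.26, SE 0.059, edgeR adjusted p = 0.0557) was lost when untreated replicate 2, untreated replicate 3 or TWEAK replicate 3 was left out (adjusted p = 0.401, 0.333 and 0.266).

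TAP1 had the smallest standard error of the 10 in SKBR3. Untreated SKBR3 held 22.9, 24.2 and 23.5 CPM, and the TWEAK libraries held 78.8, 85.1 and 80.5 CPM. The log2 fold change was 1.79 (SE 0.067, edgeR adjusted p = 5.89e-08). Untreated MDA-MB-453 held nearly the same level, 23.0, 22.5 and 23.7 CPM, and went to 36.1, 35.3 and 34.1 CPM with TWEAK. The rise from that level was 1.52-fold (log2 fold change 0.60, SE 0.050, edgeR adjusted p = 9.43e-06).

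TAP2, the partner chain in the transporter, was far less abundant, with 12 to 63 counts per library. It went from 1.47, 1.24 and 1.61 CPM to 2.34, 2.48 and 2.63 CPM in SKBR3 (log2 fold change 0.78, SE 0.17, edgeR adjusted p = 0.0173). MDA-MB-453 held 0.668, 0.437 and 0.587 CPM untreated and 0.961, 0.783 and 0.954 CPM with TWEAK. The MDA-MB-453 groups, at 12 to 35 counts a library, did not overlap. The log2 fold change of 0.68 (SE 0.25, edgeR adjusted p = 0.349) did not pass, and its 95% interval ran from 0.18 to 1.17 before adjustment.

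TAPBP, encoding tapasin, had the largest difference in log2 fold change between the lines after PSMB9, and that of TAP1 was close to it. SKBR3 went from 27.4, 28 and 32.5 CPM to 85.6, 73.8 and 86.8 CPM, a 2.79-fold rise (log2 fold change 1.48, SE 0.089, edgeR adjusted p = 1.71e-06). MDA-MB-453 held 14.2, 14.9 and 17.3 CPM untreated and 17.6, 19.1 and 18.1 CPM with TWEAK. These groups nearly touched, and the log2 fold change of 0.23 (SE 0.074, edgeR adjusted p = 0.247) was not called. It was called without untreated replicate 3 (adjusted p = 0.0965), without TWEAK replicate 2 (0.0958) and with no filter on low counts (0.0621).

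ERAP1 went from 13.7, 14.7 and 12.4 CPM to 32.7, 28.8 and 34.8 CPM in SKBR3, a 2.35-fold rise (log2 fold change 1.23, SE 0.093, edgeR adjusted p = 9.99e-06). In MDA-MB-453, where it was more abundant at the start, it went from 19.4, 19.3 and 19.5 CPM to 24.6, 25.6 and 23.1 CPM (log2 fold change 0.33, SE 0.057, edgeR adjusted p = 0.00753). The order of the lines therefore differed with and without TWEAK, SKBR3 being the lower untreated and the higher treated.

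NLRC5, the transactivator, was near the lower limit of these libraries in SKBR3. It had 20, 14 and 20 counts untreated and 25, 35 and 25 counts with TWEAK, or 0.718, 0.579 and 0.824 CPM against 1.01, 1.40 and 1.04 CPM. The log2 fold change of 0.70 (SE 0.25, edgeR adjusted p = 0.142) was not called, although it passed when all 12 libraries shared 1 fit (adjusted p = 0.0491). In MDA-MB-453 NLRC5 went from 7.83, 6.71 and 7.37 CPM to 11.5, 11.4 and 11.5 CPM, and its log2 fold change of 0.65 (SE 0.078, edgeR adjusted p = 0.000259) was called. The fold changes were 1.62 in SKBR3 and 1.57 in MDA-MB-453, the former from at most 35 counts per library and the latter from at least 184.

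**Figure D2:**
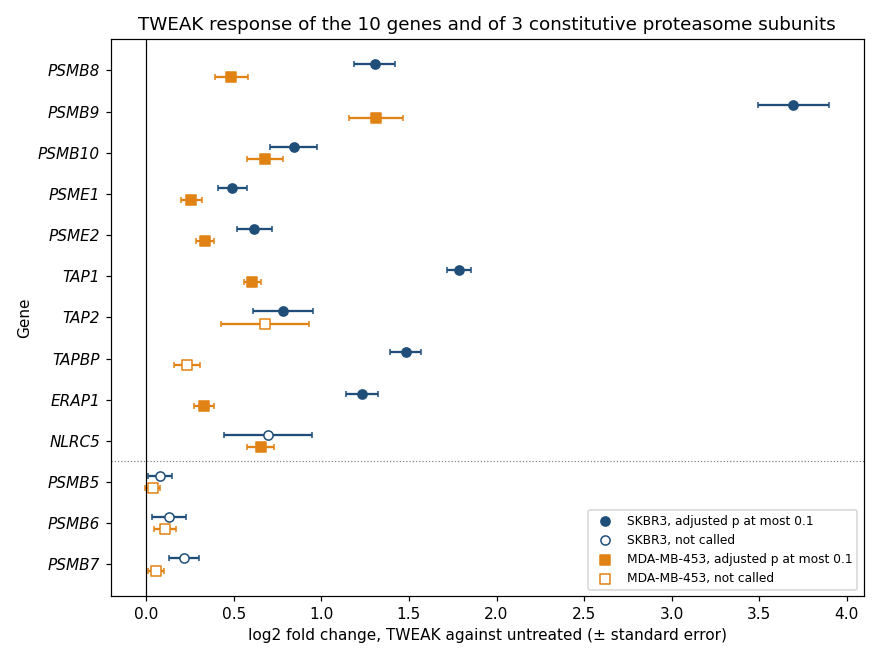
log2 fold change with TWEAK (x axis) with its standard error for the 10 genes and, below the dotted line, the 3 constitutive subunits, with SKBR3 as circles and MDA-MB-453 as squares, filled where the adjusted p was at most 0.1. The SKBR3 circle lies to the right of the square for all 10 genes, and the constitutive subunits lie near 0.

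To ask if the lines responded differently, the interaction term was tested over all 12 libraries. The log2 fold change was larger in SKBR3 for each of the 10 genes, and the difference was called for 5 of them: PSMB9, TAPBP, TAP1, ERAP1 and PSMB8. Over all genes, 2.36% were called with a larger log2 fold change in SKBR3 and 1.01% with a larger one in MDA-MB-453, and none of the 10 was of the second kind. As MDA-MB-453 minus SKBR3, the difference in log2 fold change was -2.39 for PSMB9 (95% interval -2.93 to -1.85, edgeR adjusted p = 6.05e-05) and -1.25 for TAPBP (-1.49 to -1.01, adjusted p = 1.01e-05). It was -1.19 for TAP1 (-1.34 to -1.03, adjusted p = 8.89e-08), -0.91 for ERAP1 (-1.12 to -0.69, adjusted p = 9.29e-05) and -0.83 for PSMB8 (-1.14 to -0.51, adjusted p = 0.00713). These 5 were called in every alternative that could test them, PSMB9 being dropped by the filter of at least 10 counts in every library.

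For the other 5 genes a difference between the lines was not called. The 95% interval before adjustment was -0.51 to 0.16 for PSMB10, -0.45 to -0.024 for PSME1 and -0.52 to -0.053 for PSME2, with edgeR adjusted p values of 0.812, 0.424 and 0.34. These intervals use a normal quantile and are somewhat too narrow, so those of PSME1 and PSME2 do not show a difference. For the sparse TAP2 (-0.69 to 0.48) and NLRC5 (-0.49 to 0.39) the intervals are wide and reach both sides of 0. PSMB10, TAP2 and NLRC5 changed the sign of this difference in at least 1 alternative. With a correction for GC content and length the difference of PSME1 was called (adjusted p = 0.0768).

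The lines also differed before treatment, as most genes did: 43.5% of all genes were called higher in untreated SKBR3 and 40.7% higher in untreated MDA-MB-453. Of the 10 genes, TAP2 and TAPBP were higher in SKBR3 and PSMB8, PSMB9, PSME1, PSME2, ERAP1 and NLRC5 were higher in MDA-MB-453. The widest gap was that of NLRC5, at 0.707 ± 0.123 CPM (SD, 3 libraries) in untreated SKBR3 and 7.30 ± 0.568 CPM in untreated MDA-MB-453 (log2 difference SKBR3 minus MDA-MB-453 of -3.36, SE 0.15, edgeR adjusted p = 6.67e-13). TAP2 stood at 1.44 ± 0.185 CPM against 0.564 ± 0.117 CPM (log2 difference 1.35, SE 0.22, adjusted p = 2.12e-05) and TAPBP at 29.3 ± 2.81 CPM against 15.5 ± 1.62 CPM (log2 difference 0.92, SE 0.090, adjusted p = 4.04e-08). These are the 2 genes that were not called with TWEAK in MDA-MB-453. PSMB9 (-1.35), PSMB8 (-0.73), PSME2 (-0.60) and ERAP1 (-0.51) began lower in SKBR3, with adjusted p values of at most 7.9e-05, and PSME1 did so by less (-0.20, adjusted p = 0.0258). The PSME1 call was lost without untreated SKBR3 replicate 1 (adjusted p = 0.124). PSMB10 (log2 difference -0.20, adjusted p = 0.169) and TAP1 (0.028, adjusted p = 0.659) were not called, and with a correction for GC content and length TAP1 was lower in SKBR3 (-0.23, adjusted p = 0.000338).

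Per kb of exonic length PSME1, PSME2 and TAP1 led in all 4 groups. PSME1 and PSME2 were at 67.2 ± 4.31 and 26.5 ± 1.88 CPM per kb in untreated SKBR3, and TAP1 came next at 4.97 ± 0.128, followed by TAPBP at 4.41 ± 0.423. TAPBP stood lower in MDA-MB-453, at 2.33 ± 0.244 CPM per kb untreated, below PSMB10 and PSMB8 and within its spread of ERAP1. In untreated SKBR3 PSMB10, PSMB8 and ERAP1 were at 2.71 ± 0.289, 1.76 ± 0.138 and 1.71 ± 0.144, the latter pair within their spread, as were PSMB9 at 0.157 ± 0.0495 and TAP2 at 0.139 ± 0.0179. NLRC5 was last in SKBR3 at 0.0571 ± 0.00993, whereas TAP2 was last in MDA-MB-453 at 0.0545 ± 0.0113. With TWEAK, TAP1 and TAPBP in SKBR3 rose to 17.2 ± 0.697 and 12.3 ± 1.08 CPM per kb while PSMB10 was at 4.85 ± 0.656. The PSME1 and PSME2 order turned round in 3 of the 4 groups when the canonical transcript's length was used, and PSMB8 then stood above PSMB10 in all 4, above TAP1 in untreated MDA-MB-453, and TAPBP above ERAP1 in MDA-MB-453.

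The rest of the proteasome was not called with all libraries in the fit. None of 11 other 20S core subunits, 19 subunits of the 19S cap or 8 other activators and assembly factors was called in either line, and their median log2 fold changes were 0.15, 0.089 and 0.014 for SKBR3 and 0.093, 0.048 and 0.014 for MDA-MB-453. Without TWEAK replicate 2, however, 9 of the 11 core subunits and 6 of the 19 cap subunits were called higher in MDA-MB-453, with medians of 0.14 and 0.089. Of the 8 other activators and assembly factors 1 was called higher there (median 0.030), where 6.59% of all genes were called higher. In SKBR3 1 core subunit was called without that replicate, where 9.93% of all genes were called higher. No cap subunit and no other activator or assembly factor was called there.

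Among 9 other factors of peptide loading and folding in the endoplasmic reticulum, 2 were DEGs in SKBR3 and 1 in MDA-MB-453, all upregulated. Over all genes 6.6% and 1.29% were called higher. Without TWEAK replicate 2 the counts were 2 and 3, where 9.93% and 6.59% of all genes were called higher. ERAP2, the partner aminopeptidase of ERAP1, had log2 fold changes of 1.48 (edgeR adjusted p = 0.021) and 0.71 (adjusted p = 2.55e-05), though it had 8 to 37 counts in SKBR3. TAPBPL, a tapasin relative that edits peptides, had 1.26 in SKBR3 (adjusted p = 0.0182) and 0.22 in MDA-MB-453 (adjusted p = 0.376). Of 8 cytosolic peptidases, which destroy or trim peptides before transport, none was called in SKBR3 and LAP3 was called in MDA-MB-453 (log2 fold change 0.21, adjusted p = 0.0942). Without TWEAK replicate 2, 1 of these 8 was called higher in each line.

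The class I molecules that receive these peptides were called higher for 4 of 5 tested chains in SKBR3 and 5 of 6 in MDA-MB-453. HLA-B had a log2 fold change of 1.67 in SKBR3 and 1.74 in MDA-MB-453 (edgeR adjusted p = 6.36e-05 and 1.25e-06), and a difference between the lines was not called (interaction adjusted p = 0.986). HLA-C had 1.28 in SKBR3, from 14 to 45 counts per library, and 0.29 in MDA-MB-453, from 5866 to 10212 counts, and this difference was called (interaction adjusted p = 0.0207). HLA-F, tested in MDA-MB-453 only, had 0.98. Of 7 tested factors that bind class I promoters together with NLRC5, NFYB fell in SKBR3 (log2 fold change -0.26, adjusted p = 0.0455) and none was called in MDA-MB-453.

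Among 14 tested genes of interferon receptors, their kinases and downstream factors, 6 were higher in SKBR3, 4 in MDA-MB-453 and none lower. IRF1, a factor that binds interferon-stimulated elements, rose in both lines (log2 fold change 1.09 and 1.22, edgeR adjusted p = 4.33e-05 and 8.69e-06). The interferon gamma receptor chains IFNGR1 and IFNGR2 rose in SKBR3 (1.0 and 0.70, adjusted p = 2.46e-06 and 0.000359), and in MDA-MB-453 they had 0.18 and 0.11 (adjusted p = 0.243 and 0.685). For both chains the interaction was called with the larger response in SKBR3 (adjusted p = 1.36e-05 and 0.00897). None of 7 interferon genes had enough counts to be tested. IFNG had 0 counts in all TWEAK libraries, and IFNL1 had 11, 7 and 17 counts with TWEAK in MDA-MB-453 and 3, 7 and 6 without it.

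The NF-kB subunits NFKB2 and RELB, which form the non-canonical dimer, rose in both lines. NFKB2 had log2 fold changes of 1.79 and 1.67 (edgeR adjusted p = 9.34e-08 and 3.01e-10), and RELB had 1.44 and 2.75 (adjusted p = 1.73e-05 and 2.95e-08). RELB thus had its larger response in MDA-MB-453 (interaction adjusted p = 0.00158), opposite in direction to the 5 called genes among the 10. It was at 1.2 to 1.30 CPM in untreated MDA-MB-453 and at 15.6 to 19.4 CPM in untreated SKBR3. NFKB1 rose in SKBR3 (0.47, adjusted p = 0.000986) and had 0.12 in MDA-MB-453 (adjusted p = 0.276).

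The 10 genes varied together over the 12 libraries once each line's mean was taken off. The correlation of each with the mean of the other 9 ran from 0.841 for NLRC5 to 0.989 for PSMB9, a description over libraries that share the treatment groups. Of 11641 other expressed genes, the 5 with the pattern most like the mean of the 10 were NFKBIE (Pearson r = 0.995), S100A9 (0.992), PLEKHF1 (0.990), ANKRD22 (0.989) and S100A8 (0.989). NFKBIE encodes an inhibitor of NF-kB. It had a log2 fold change of 1.28 in SKBR3 and one of 0.52 in MDA-MB-453.

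The second TWEAK replicate lay on opposite sides of its group in the 2 lines. In SKBR3 replicate 2 was the highest of the 3 TWEAK libraries for 7 of the 10 genes and the lowest for TAPBP and ERAP1, and in MDA-MB-453 it was the lowest for 7 and the highest for TAPBP and ERAP1. PSMB5, PSMB6 and PSMB7 and 10 of the 11 other core subunits followed the same course, highest in SKBR3 and lowest in MDA-MB-453. Its part in the results was not tested beyond leaving it out. Without it, 9 of the 10 genes were DEGs in SKBR3 (9.93% of all genes called higher in that fit) and 9 in MDA-MB-453 (6.59%), with median log2 fold changes of 0.995 and 0.595. None was lower, where 1191 of 15996 genes were called lower in SKBR3 and 1098 of 15216 in MDA-MB-453. Leaving it out of both lines kept the 5 called differences between the lines, with PSMB8 at -0.61 and PSMB9 at -2.25, and brought PSME1 and PSME2 to -0.068 and -0.10.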

How the data were processed

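RNA was isolated with TRIzol, treated with DNase and selected for poly-A, and HiSeqX was the sequencer. The library kit is a directional RNA kit in the paper and a DNA kit in the labels. The authors trimmed reads with Trimmomatic, used STAR for mapping to hg38 and featureCounts for counting. Versions, strand setting, annotation release and the handling of multimapping reads are not given in the sources used here. The deposited values are raw counts per gene, whole numbers without normalisation and without molecular identifiers, so duplicate reads remain in them as far as the authors left them. GENCODE 44 holds 61918 of the 62696 gene identifiers in the same version, 707 in another version, and lacks 71.

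Fits were made for each line alone, on 6 libraries, in edgeR 4.0.16 under R 4.3.3 (filterByExpr, TMM, quasi-likelihood test without a term for the replicate number, prior count 0.125), and a gene was called at an adjusted p (Benjamini-Hochberg) no higher than 0.1. The interaction and the untreated comparison were fitted on all 12 libraries, whose TMM factors lay between 0.933 and 1.05. The SE is the absolute log2 fold change divided by the root of the F statistic. An exact permutation test of 3 against 3 libraries cannot go below p = 0.1 and was not used for single genes. The fits were tested on simulated counts. The members and lists were chosen with earlier results of these data known. Named were the 10 genes, their 3 counterparts, of each other list up to 4 genes called in either line, by size of change, and the 5 genes most like the mean of the 10. Some genes that this rule names are not reported here. Alternatives were DESeq2 size factors, DESeq2 1.42.0, other filters on low counts, the replicate block, a threshold of 0.05, 1 fit of all 12 libraries and each library left out. A correction for GC content and length and the fit without TWEAK replicate 2 of both lines were added after seeing the data.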

Additional observations from a re-analysis of the deposited data

Results flagged for a closer look

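For 5 of the 10 genes the response to TWEAK differed between the lines by the interaction test of edgeR, with an adjusted p of at most 0.1. Subtracting the SKBR3 value from the MDA-MB-453 value, the log2 fold changes differed by -2.39 for PSMB9, -1.25 for TAPBP, -1.19 for TAP1, -0.91 for ERAP1 and -0.83 for PSMB8. TAPBP was not called with TWEAK in MDA-MB-453 (adjusted p = 0.247), and the other 4 were called higher in both lines. PSMB9 rests on 9 to 17 counts per library in untreated SKBR3.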

How the results depend on the processing

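Of 677 values of the 10 genes under the alternatives, 653 kept their direction and their side of the threshold, 9 were no longer called, 7 became called and 8 turned direction. The number of genes called lay between 8 and 10 for SKBR3, between 6 and 9 for MDA-MB-453, between 4 and 6 for the interaction and 7 and 10 between the untreated lines, with the filter of at least 10 counts in every library dropping PSMB9. Those that turned direction were differences not called in the reported fit. The interaction of NLRC5 was 0.065 without untreated SKBR3 replicate 2, 0.13 without SKBR3 TWEAK replicate 2, 0.0032 without untreated MDA-MB-453 replicate 1, 0.033 with the GC and length correction and 0.13 without TWEAK replicate 2 of both lines. Over all single libraries left out it ran from -0.15 to 0.13 for NLRC5 and from -0.26 to 0.030 for TAP2. That of TAP2 was 0.030 without untreated MDA-MB-453 replicate 1, and that of PSMB10 was 0.024 without TWEAK replicate 2 of both lines. The untreated difference of TAP1 was -0.23 with the GC and length correction. The cause was not tested.

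Other calls that moved were PSME2 in MDA-MB-453 (adjusted p = 0.103) and PSME1 there (0.316) with all 12 libraries in 1 fit, PSME1 there at a threshold of 0.05, PSME1 between the untreated lines without untreated SKBR3 replicate 1 (0.124), and, with the GC and length correction, the interaction of PSME1 (0.0768) and the untreated difference of PSMB10 (0.00576), which became called.

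Counts over all genes moved more. In SKBR3 1633 genes were called, 2780 without TWEAK replicate 2, 926 without untreated replicate 2, 978 without untreated replicate 1, 2575 with all 12 libraries in 1 fit and 2926 with the GC and length correction. In MDA-MB-453 223 were called, 2101 without TWEAK replicate 2, 131 without untreated replicate 2 or 3, 143 without TWEAK replicate 3, 480 with no filter, 144 with all 12 libraries and 347 with the correction. For the interaction, 579 became 1150 without SKBR3 TWEAK replicate 2, 2077 without that replicate in both lines and 1029 with the correction.

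The reported fits took the samples as unpaired by replicate number. Same-numbered deviations correlated at 0.115, -0.0974 and -0.161 in SKBR3. In MDA-MB-453 they correlated at 0.0862, 0.0832 and 0.025, and each library correlated best with its own number. Whether the numbers pair the samples in MDA-MB-453 is therefore not settled. With the replicate block 9 of the 10 genes were called in SKBR3, 9 in MDA-MB-453 with TAPBP added (adjusted p = 0.0588), 5 for the interaction and 8 between the untreated lines, with 1211, 894, 422 and 14445 of all genes. The calls missing for NLRC5 in SKBR3 and TAP2 in MDA-MB-453 rest on 14 to 35 and 12 to 35 counts per library, and the part of depth in them was not tested.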
